A study of Arabidopsis thaliana with 16 samples.

Results

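The 10 genes described here encode chaperones and lectins that fold proteins in the endoplasmic reticulum (ER) of Arabidopsis thaliana: SHD (AT4G24190), BIP1 (AT5G28540), BIP2 (AT5G42020), BIP3 (AT1G09080), CNX1 (AT5G61790), CNX2 (AT5G07340), CRT1a (AT1G56340), CRT1b (AT1G09210), CRT3 (AT1G08450) and SDF2 (AT2G25110). They are 10 of the 37899 annotated genes of chromosomes 1 to 5, of which 27444 are protein-coding. They were chosen by function, with the strength of the native peaks at SHD and CNX1 already known, so the peak strengths at these genes are a description and carry no test. Deposited binding peaks that reached a gene or the 1 kb on either side of it were compared over 2 constructs and 2 conditions.

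Binding of the transcription factor HSFA1b was measured in leaves by ChIP-seq, in which crosslinked chromatin is immunoprecipitated and the recovered DNA is sequenced. The 16 samples fell into 8 groups of 2 libraries, all from Col-0 plants aged 5 weeks and kept in days of 8 h light and 16 h dark. NP:HSFA1b plants are a single line that carries HSFA1b fused to eYFP under its native promoter, precipitated with an anti-GFP antibody. The 35S:HSFA1b plants overexpress a fusion to RFP under the constitutive viral 35S promoter, precipitated with an anti-RFP antibody. Each construct had control libraries made with the same antibody. In the NP experiment these came from wild-type Col-0 plants, and the plants behind the other controls are not given in the sources used here. Non-stress (NS) plants stayed at 23 °C and 60% relative humidity, and heat stress (HS) plants spent 30 min at 37 °C and 86% humidity. Both transgenes are in Col-0, so the plants also carry the untagged HSFA1b gene. Leaves hold several cell types, and binding in more cells and more binding per cell cannot be told apart.

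The ER lumen folds secreted and membrane proteins with its own HSP90 (SHD), its own HSP70 proteins (the BiPs) and a lectin cycle in which calnexins and calreticulins hold glycoproteins that carry a single terminal glucose. When unfolded proteins accumulate there, the unfolded protein response raises the transcription of these genes through the factors bZIP60 and bZIP28, which bind the unfolded protein response element (UPRE) and the ER stress response elements (ERSE-I and ERSE-II). HSFs belong to another response, that to misfolding in the cytosol, and bind the heat shock element (HSE), made of inverted repeats of GAA.

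The sequences at the start sites are shown first, because the summits of the native peaks fell on or beside them and most hold matches to the elements of the unfolded protein response. All are read on the coding strand of the gene from the RefSeq copy of TAIR10, and capitals mark matches to UPRE, ERSE-I, ERSE-II or the G-box on either strand. The run upstream of SHD ends 1 base before the annotated start (TAIR10 chr4:12556059-12556168, minus strand). It lies in the 209-bp gap between SHD and its neighbour AT4G24200, and the NP summits under NS and HS sat 29 and 33 bp upstream of the start. Its capitals are a UPRE and, nearer the start, an ERSE-I that overlaps a G-box.
SHD: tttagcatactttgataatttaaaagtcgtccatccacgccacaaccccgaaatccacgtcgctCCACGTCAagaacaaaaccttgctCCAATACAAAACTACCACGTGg

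The upstream runs of CRT1a (chr1:21092710-21092859, minus strand), BIP3 (chr1:2931851-2932000, minus strand) and SDF2 (chr2:10684018-10684117, plus strand) also end 1 base before the start. Capitals mark UPRE on both sides of an ERSE-I in CRT1a, an ERSE-I in BIP3, and a G-box alone in SDF2.
CRT1a: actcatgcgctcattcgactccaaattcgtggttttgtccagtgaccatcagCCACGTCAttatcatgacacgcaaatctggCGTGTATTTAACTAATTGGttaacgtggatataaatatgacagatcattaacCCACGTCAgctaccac
BIP3: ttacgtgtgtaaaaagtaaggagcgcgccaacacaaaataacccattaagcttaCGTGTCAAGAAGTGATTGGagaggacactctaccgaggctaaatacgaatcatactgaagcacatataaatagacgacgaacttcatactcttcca
SDF2: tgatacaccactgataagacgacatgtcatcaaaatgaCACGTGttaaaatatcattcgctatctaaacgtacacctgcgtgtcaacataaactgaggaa

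At CNX1 (chr5:24829858-24829887), BIP1 (chr5:10543421-10543450), BIP2 (chr5:16810652-16810681) and CRT1b (chr1:2976815-2976844), all on the minus strand, the matches lie in the annotated leader downstream of the start, and only 30 bases around each match are shown. Capitals mark UPRE and ERSE-I sharing bases in CNX1, UPRE and ERSE-II sharing bases in BIP1 and BIP2, and ERSE-I in CRT1b.
CNX1: ttgaaTGACGTGGCCTGTTATGATTGGtta
BIP1: gtaagataATTGGTCCACGTCAtctctgat
BIP2: gtaagataATTGGTCCACGTCAtctccgat
CRT1b: aatgtatctgaCGTGTCGGTTACCTATTGG

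The BIP1 and BIP2 sites share an identical run of 26 bases. They lie at different distances from the annotated starts, since the ERSE-II begins 116 bp downstream of the start in BIP1 and 20 bp downstream in BIP2. No match to these elements was found within 50 bp of the CNX2 summit, and CRT3 had no native peak near its start.

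Each condition and construct is represented by 1 deposited peak list that merges both of its libraries. The spread between replicates is therefore unknown for every value given here, and no test across samples could be made. The NP pools held 6783161 fragments under NS and 2438702 under HS, and the 35S pools held 19579327 and 13481546. The NP HS pool was thus 0.360 times as deep as the NP NS pool. The NP lists covered 0.408% (NS) and 0.421% (HS) of the chromosomes. The 35S lists covered 43.5% and 35.9%, so that a gene overlapped a 35S peak far more readily than an NP peak. The 2 libraries that served as controls for 35S HS were also among the 4 controls of 35S NS. Fold enrichment below is the caller's ratio of fragment coverage at the summit to the background it used there. This background is called local below, although in each list it had a lowest value that the caller did not go under. All 35S NS peaks at the members stood on that lowest value, as did the start-site peaks of BIP2 and CRT1b in NP HS. A gene is counted as having a peak where the fold enrichment was at least 2.

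In the native lists, 7 of the 10 genes had a peak under NS, where 3.6% of all genes did, and 9 of 10 had one under HS, where 4.94% did. Because native peak strength was known when the genes were chosen, nothing is read from these counts. SHD, BIP3, CNX1, CNX2, CRT1a and CRT1b had a peak in both conditions (1.75% of all genes). BIP1, BIP2 and SDF2 had one under HS alone (3.19%), and CRT3 had one under NS alone (1.86%). The weakest native peak that kept a gene in these counts was that of CNX2 under NS, at 2.30-fold, and 0 members had a native peak that was listed below 2-fold.

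The conditions differed in where the peaks lay. Under HS, 9 genes, all but CRT3, had a native summit within 250 bp of the start site, as did 1.73% of all genes. Under NS this held for 4 genes, SHD, CNX1, CRT1a and CRT1b, against 0.794% of all genes. The 3 other genes with an NS peak carried it elsewhere. That of CNX2 lay in the trailing untranslated region, 2670 bp from the start. That of CRT3 lay past the end of the gene, 4236 bp from the start. That of BIP3 lay 3360 bp from the start, within the neighbouring gene SRC2.

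**Figure D1:**
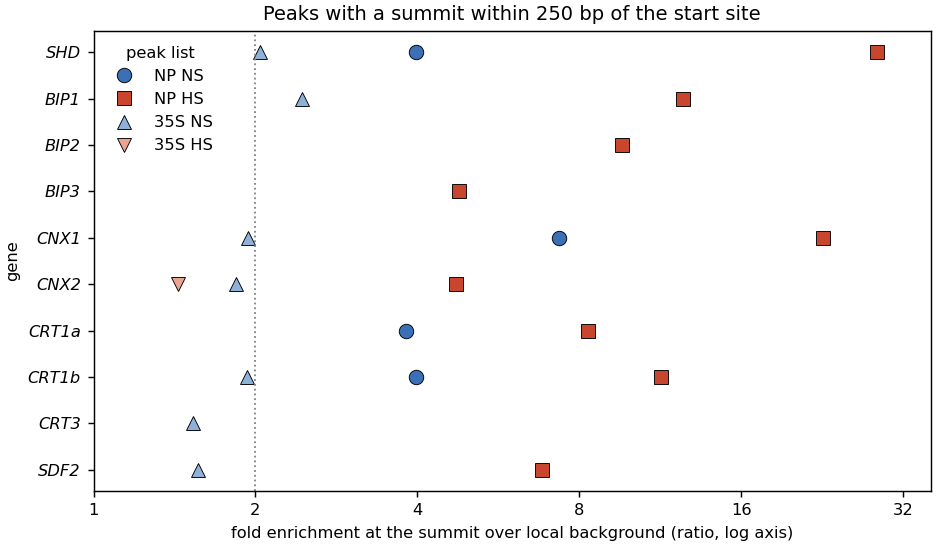
Fold enrichment (ratio over local background, log axis) of each gene's strongest deposited peak with a summit within 250 bp of the start site, with 1 symbol per peak list and the dotted line at 2-fold. Every NP HS value (4.72 to 28.6) lies right of the 35S values, and the 4 NP NS values lie left of the NP HS value of the same gene. CRT3 has only a 35S NS value of 1.53. The caller's lowest background per fragment in the pool was higher in the 35S lists, so the constructs do not share a common scale.

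SHD, the HSP90 of the ER lumen, had the highest fold enrichment of the group and of the whole NP HS list. Its summit lay 29 bp upstream of the start under NS and 33 bp upstream under HS. Fold enrichment was 3.98 under NS, rank 189 of the 955 peaks on the chromosomes, and 28.6 under HS, rank 1 of 1259. The summit pileup, the number of fragments over that base, was 91 of the NS pool and 161 of the HS pool. Expressed as fragments over the summit per 1000000 fragments in the pool (FPM), this was 13.4 (95% exact counting interval 10.8 to 16.5) under NS and 66.0 (56.2 to 77.0) under HS. The intervals of both pools do not overlap, and the ratio of HS to NS was 4.92 (3.78 to 6.44). These intervals cover counting error only. By pileup the HS peak ranked 23 of 1259, and its local background was 1.91 FPM.

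The BiPs are the HSP70 chaperones of the lumen, which hold unfolded chains and also keep bZIP28 in the ER of unstressed cells. BIP1 and BIP2, the closely related pair expressed in most tissues, were absent from the NP NS list and had strong start-site peaks under HS. The BIP1 summit lay 92 bp downstream of the start, with a fold enrichment of 12.5 (rank 28) and 27.5 FPM (21.3 to 34.9). The BIP2 summit lay 77 bp downstream, with 9.59-fold enrichment (rank 69) and 17.6 FPM (12.8 to 23.8). At the same FPM the NS pool would have held 186 fragments over the BIP1 summit and 120 over that of BIP2. The lowest summit listed for NS held 24 fragments. Peaks of that height were thus within what the NS list could hold, although a peak list does not give the height that the NS pool did have there.

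BIP1 and BIP2 also carried native peaks along the gene body under HS. BIP1 had 3 besides the start-site peak, all with summits in coding sequence and fold enrichments of 2.94 to 4.29, so that peaks covered 52.8% of the gene under HS and 0% under NS. BIP2 had a single body peak of 2645 bp with a fold enrichment of 5.62, and peaks covered 79.7% of the gene under HS and 0% under NS. Coverage of the other 8 genes under HS was between 0% and 24.3%. The coding sequences of BIP1 and BIP2 are 96.7% identical, and 226 of the 5337 windows of 100 bases in and around BIP1 occur again elsewhere in the genome. Of the windows touching the middle BIP1 body peak 40.5% did so, and of those of the wide BIP2 peak 8.24%. At the start-site peaks of both genes 0% did so. The study's methods set aside broad peaks over highly transcribed genes and all peaks of the pericentromere, where BIP1 lies, and such peaks were kept here.

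BIP3, the BiP gene known for being nearly silent until the ER is stressed, had its start-site peak under HS alone, 100 bp upstream of the start, with 4.78-fold enrichment and 9.02 FPM (5.65 to 13.7). That peak stood over an ERSE-I. A wider pair of peaks at the other end of the gene, 2.35-fold under NS and 4.85-fold under HS, had summits nearer to the start of SRC2 than to that of BIP3. Without them BIP3 would count as having a native peak under HS alone.

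The lectins of the ER divide into the membrane-anchored calnexins (CNX1 and CNX2) and the soluble calreticulins. CNX1 had the highest fold enrichment of the group under NS, 7.34 (rank 11), with its summit 1 bp upstream of the start. Under HS the summit lay 41 bp downstream, with 22.7-fold enrichment (rank 3). Pileup was 15.8 FPM (12.9 to 19.1) under NS and 48.0 (39.7 to 57.5) under HS, a ratio of 3.04 (2.32 to 3.99), close to the ratio of fold enrichments, 3.09. By pileup the CNX1 peak ranked 95 under NS, below those of CRT1a (rank 46) and CRT1b (rank 82) and above that of SHD (rank 131), and it ranked 32 under HS. CNX1 also had a weak peak beyond its trailing end under NS (2.34-fold) and one in an intron under HS (3.73-fold). CNX2, whose coding sequence is 84.2% identical to that of CNX1, had a start-site peak under HS alone, with 4.72-fold enrichment and 13.9 FPM (9.66 to 19.5). Its NS peak (2.30-fold) lay 2671 bp away from it, so the values of the gene in both conditions do not belong to the same site.

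CRT1a and CRT1b, calreticulins with 84.4% identical coding sequences, both had start-site peaks in both conditions. The CRT1a summit lay 86 bp upstream under NS and 75 bp upstream under HS, with 3.81-fold and 8.31-fold enrichment. Its pileup was 23.0 FPM (19.5 to 26.9) under NS and 46.7 (38.6 to 56.2) under HS, a ratio of 2.03 (1.58 to 2.60). CRT1a stood on the highest local background of the members' start-site peaks, 5.93 FPM under NS and 5.27 FPM under HS. A further HS peak past the end of CRT1a, at 4.88-fold, was nearest to the start of SAR1B.

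CRT1b gave a different answer by the 2 measures. Fold enrichment was 3.98 under NS and 11.3 under HS, a ratio of 2.85 for which no counting interval was made. Pileup was 17.0 FPM (14.0 to 20.4) under NS and 20.9 (15.6 to 27.5) under HS, a ratio of 1.23 (0.869 to 1.73) whose interval includes 1. The local background was 4.15 FPM under NS and 1.47 under HS, the lowest value that the caller used in that list. The summits lay 155 and 148 bp downstream of the start, within the leader.

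CRT3, the plant-specific calreticulin that retains misfolded receptor kinases, had 1 native peak, under NS, with 2.75-fold enrichment and 35 fragments at the summit. At the same FPM the HS pool would have held 12.6 fragments, beside 12 at the lowest summit listed for HS. A peak of that height would thus stand at the edge of what the HS list holds, and its absence there does not show that binding differed. SDF2, a partner of the J-protein ERDJ3B and BiP, had a peak under HS alone, 70 bp upstream of the start, with 6.83-fold enrichment and 23.4 FPM (17.7 to 30.3). At that height the NS pool would have held 159 fragments, and no NS peak was listed.

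**Figure D2:**
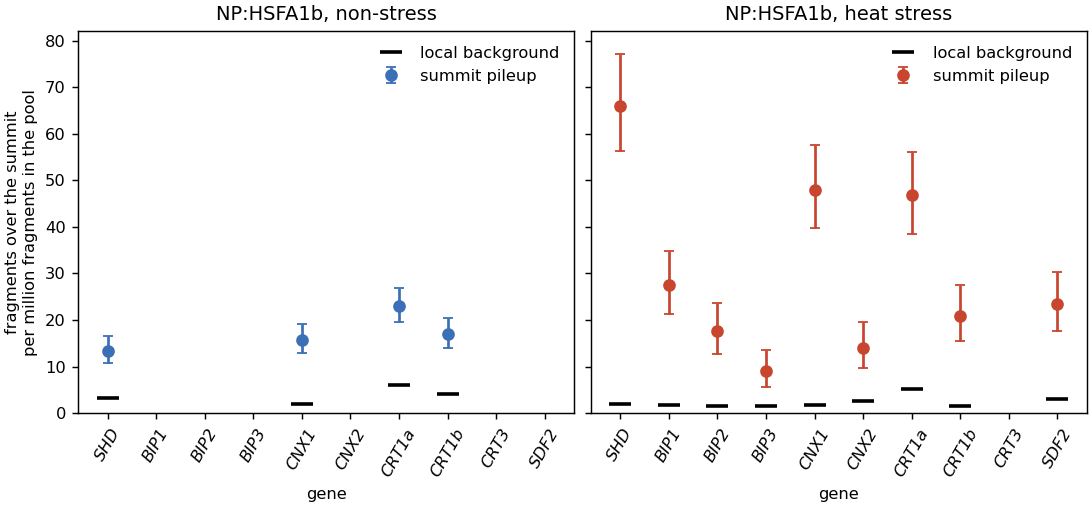
Fragments over the summit per 1000000 fragments in the pool (FPM), for native peaks with a summit within 250 bp of the start site, under NS (left) and HS (right). Points are the summit pileup with 95% exact counting intervals and black bars the local background. The HS values run from 9.02 at BIP3 to 66.0 at SHD, and CRT1b is the gene whose NS and HS intervals overlap.

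Over the whole NP lists, 342 pairs of an NS and an HS peak overlapped each other. The median log2 ratio of HS to NS in these pairs was 0.68 by fold enrichment and 0.34 by pileup per fragment. The members held 5 of the pairs, at SHD, CNX1, CRT1a, CRT1b and BIP3, with medians of 1.51 and 1.02. SHD had the highest ratio of all 342 pairs by either measure, with log2 ratios of 2.85 and 2.30. CNX1 ranked 25 by fold enrichment and 12 by pileup, CRT1a 88 and 62, and BIP3, with its peak in SRC2, 104 and 106. CRT1b ranked 34 by fold enrichment and 181 by pileup.

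**Figure D3:**
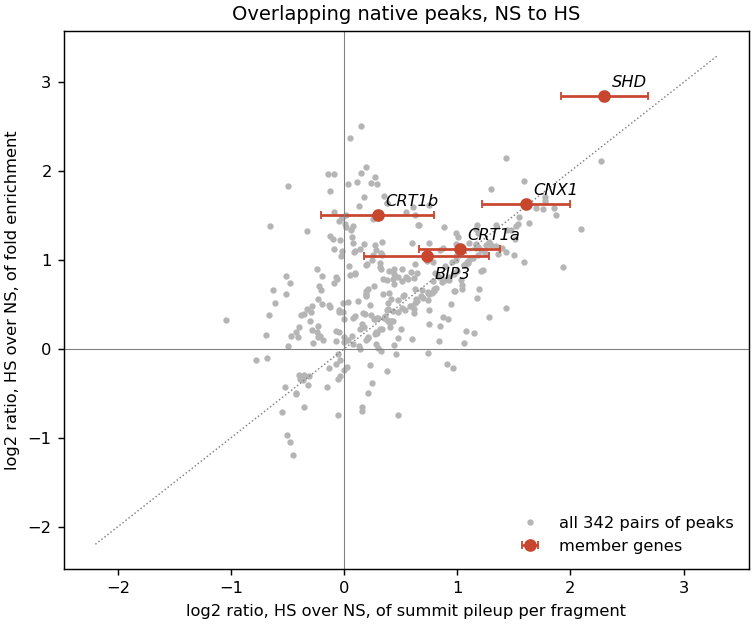
The log2 ratio of HS to NS for overlapping native peaks, by fold enrichment (vertical) against summit pileup per fragment (horizontal, with 95% counting intervals for the members). Grey points are all 342 pairs and the dotted line marks equal ratios. SHD lies at the top right, at 2.85 and 2.30, and CRT1b lies far above the line, at 1.51 and 0.30.

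The start-site peaks of the members were also set against all native peaks with a summit within 250 bp of a start. Under NS the members' fold enrichments were 3.81 to 7.34 (median 3.98 of 4), beside a median of 3.36 over 274 such peaks. Under HS they were 4.72 to 28.6 (median 9.59 of 9), beside a median of 5.00 over 580. Pileup under HS was 9.02 to 66.0 FPM (median 23.4), beside a median of 10.3. The larger sets include the members, and native peak strength was known when the members were chosen, so these medians are a description only.

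Sequence was not used directly to choose the members. They were chosen by function, however, and the unfolded protein response described above acts on these genes through UPRE and ERSE. Matches at the members were therefore likely in advance, and their shares are a description only. The study had also reported UPRE, the G-box and an HSE among the motifs found within its HSFA1b peaks. These words are thus not independent of the peaks searched here. The words searched, on both strands, were TGACGTGA or TGACGTGG for UPRE, CCAAT and CACG with 10 bases between them for ERSE-I, ATTGG and CCACG with 1 base between them for ERSE-II, CACGTG for the G-box, ACGT for the core shared by many bZIP sites, and TCATCG for UPRE-III. For the HSE they were 3 alternating repeats, GAA, TTC and GAA or TTC, GAA and TTC, with 2 bases between repeats. A match is a run of letters and does not show that a factor was bound. Within 50 bp of the start-site summits, UPRE, ERSE-I or ERSE-II was found at 4 of 4 member peaks under NS and at 6 of 9 under HS. Among all start-proximal native peaks, 4.01% of 274 under NS and 6.21% of 580 under HS had such a match, the members among them. ERSE-I was found at SHD, BIP3, CNX1, CRT1a and CRT1b, UPRE at SHD, BIP1, CNX1 and CRT1a, and ERSE-II at BIP1. UPRE-III was found at 1 of the 9 HS summits, that of BIP2, beside 4.27% of all NP HS summits, start-proximal or not. Within 100 bp the count under HS was 7 of 9, with BIP2 added, beside 8.28% of all such peaks. The ACGT core was found at 9 of 9 HS summits. ACGT lies within UPRE and the G-box, however, and is common, at 28.0% of all NP HS summits, start-proximal or not.

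The HSE was found at 0 of the 4 NS and 0 of the 9 HS start-site summits, and it was also absent from the whole intervals of these peaks. Among all start-proximal native peaks 8.39% under NS and 7.76% under HS had an HSE. With 1 mismatch allowed, the members still had 0 of 9 under HS, where 24.3% of all start-proximal peaks had one. With only 2 repeats required the members had 0 of 9 as well, beside 20.7% of all NP HS summits, start-proximal or not. No match says only that these letters were not in the window, and HSFs bind sites that depart from the words searched. The windows hold reference bases alone, but their positions come from the summits and peaks of the pooled calls.

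The promoters, taken from 250 bp before to 50 bp after the start, were searched as well, without any use of peaks. UPRE was found in 4 of the 10 (SHD, BIP2, CNX1 and CRT1a), where 2.16% of the 27444 protein-coding promoters had it. ERSE-I was found in 4 of 10 (SHD, BIP3, CNX1 and CRT1a), where 0.849% had it, and ERSE-II in BIP2, where 0.0692% had it. The G-box was found in SHD, BIP3, CRT1a and SDF2, where 7.68% had it. The HSE was found in 0 of 10, where 0.481% had it, and in 0 of 10 with 1 mismatch, where 2787 of the 27444 had it. BIP1 and CRT1b had their elements too far downstream of the start to fall in this window.

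**Figure D4:**
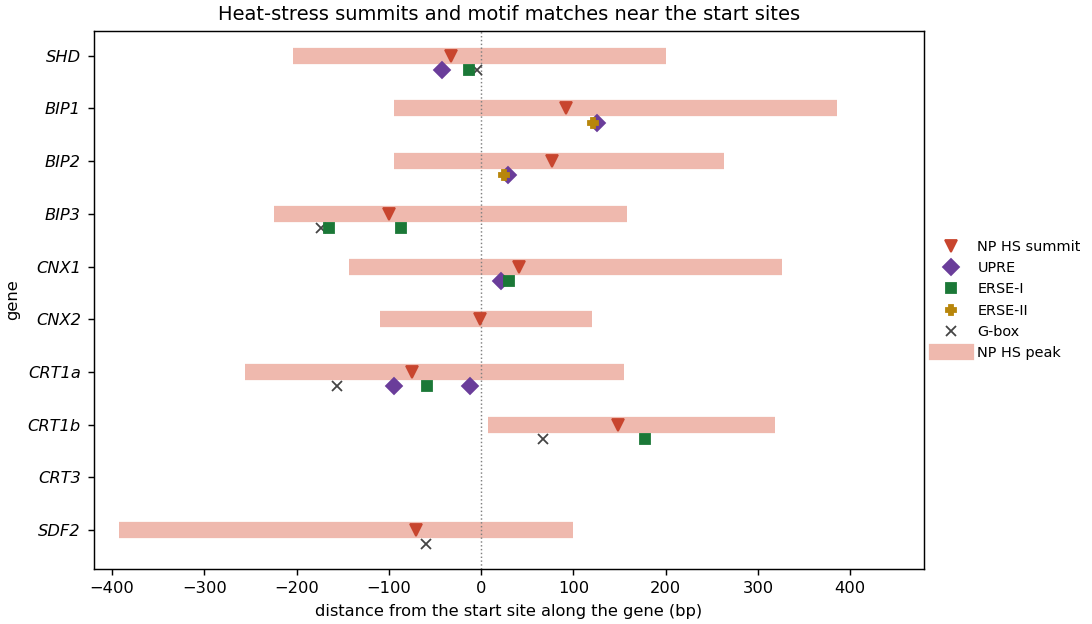
Native HS peaks (bars) with their summits (triangles) by distance from the start site along the gene in bp, and matches to UPRE, ERSE-I, ERSE-II and the G-box (other symbols) near them. The SHD summit lies 33 bp upstream of the start between matches, the BIP1 and CRT1b matches lie downstream of the start, and CNX2 and CRT3 show none in the stretch plotted.

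The 35S lists were read beside the native ones as values only, because promoter, tag, antibody, controls and the caller's lowest background all differed. That background was 4.71 FPM in 35S NS and 4.78 in 35S HS, against 1.57 in NP NS and 1.47 in NP HS. The same FPM could thus give a lower fold enrichment in 35S. At CRT3, a summit of 5.16 FPM was 2.75-fold in NP NS, and one of 7.25 FPM at another site was 1.53-fold in 35S NS. In the 35S NS list 5 of the 10 genes had a peak of at least 2-fold, where 37.3% of all genes did, and in the 35S HS list 3 did, where 20.2% did. These counts are close to what the share of all genes would give. Most of the calls came from very wide peaks. CRT1a was reached in 35S NS by a peak of 4645733 bp whose summit lay 84744 bp away, and BIP2 by a peak of 110313 bp with its summit 52639 bp away. With the summit required to lie in the gene or within 1 kb of it, 2 genes were left in 35S NS (12.7% of all genes) and 1 in 35S HS (5.59%). The native counts of 7 and 9 did not move with that requirement (3.26% and 4.67% of all genes). Without peaks wider than 1000 bp, 1 gene was left in 35S NS (4.74%) and 0 in 35S HS (1.53%), while the native lists gave 6 under NS (3.22%), with BIP3 lost, and 9 under HS (4.76%). With every deposited peak counted, whatever its fold enrichment, 10 genes had one in 35S NS (72.9%) and 9 did in 35S HS (52.5%). The native counts were then 7 under NS (3.81%) and 9 under HS (4.97%).

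The 2 genes left in 35S NS were SHD and BIP1, which were also the 2 with a 35S NS summit of at least 2-fold within 250 bp of the start (4.83% of all genes). In 35S HS there were 0 such genes (1.82%). The 35S NS summit at SHD lay 31 bp upstream of the start, 2 bp from the native HS summit, with a fold enrichment of 2.04 and 9.65 FPM (8.33 to 11.1). The 35S NS summit at BIP1, 144 bp downstream of the start, reached 2.44-fold but belonged to a peak of 94633 bp. Just below the limit of 2, 35S NS summits stood at the starts of CNX1 (1.94-fold), CRT1b (1.93) and CNX2 (1.84), and lower ones at SDF2 (1.57) and CRT3 (1.53). With every deposited peak counted, 7 of the 10 genes had a 35S NS summit within 250 bp of the start, where 21.6% of all genes did. In 6 of these genes the native HS list also had a start-site summit, at distances of 2 to 74 bp from the 35S one. For 35S HS the count was 1 of 10, CNX2 at 1.43-fold, where 11.2% of all genes had such a summit. The 35S HS call at CNX1 (2.15-fold) lay 2882 bp downstream of the start, past the end of the gene.

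**Figure D5:**
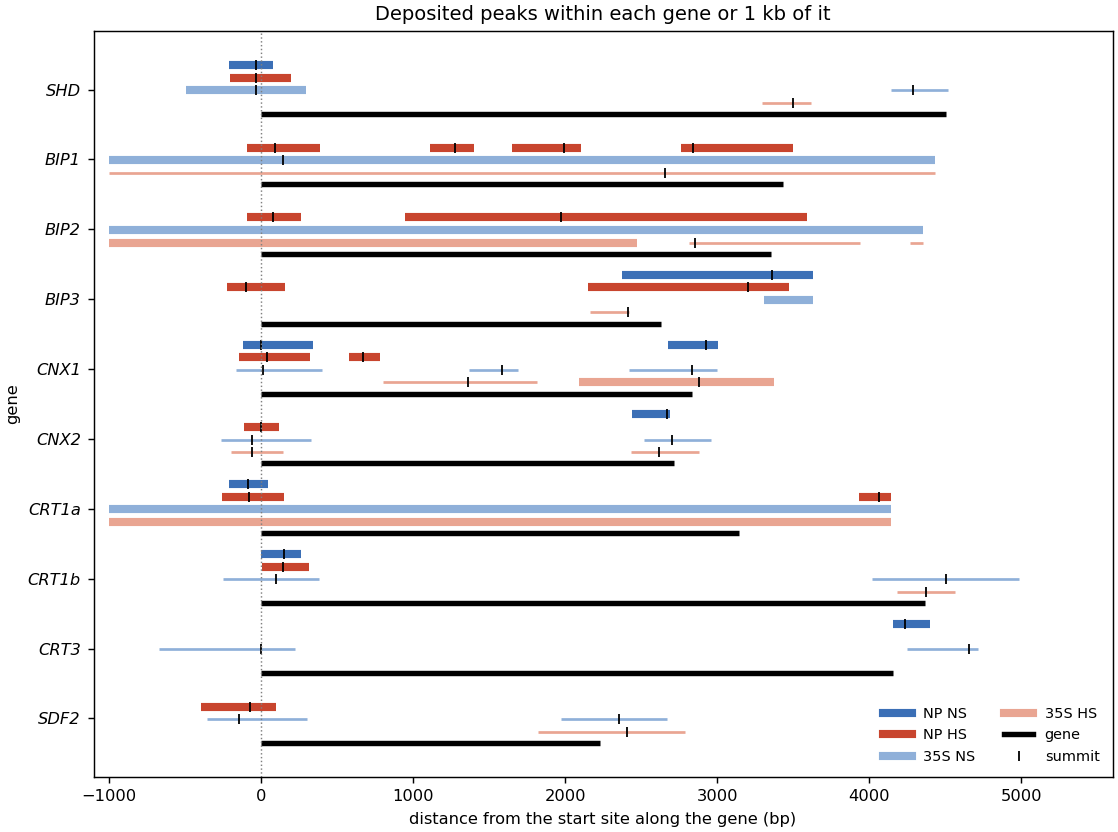
Deposited peaks of the 4 lists within each gene or 1 kb of it, by distance from the start site along the gene in bp. Thick bars are peaks of at least 2-fold, thin bars weaker ones, ticks the summits and black bars the genes. Native HS peaks stand at 9 of the 10 starts, BIP1 and BIP2 carry HS peaks along the gene, and wide 35S peaks run across BIP1, BIP2 and CRT1a.

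A list of 28 other genes of ER folding and quality control was taken by function. In the native lists 5 had a peak under NS (3.6% of all genes) and 10 under HS (4.94%). A summit within 250 bp of the start was found at 4 under NS (0.794% of all genes) and 9 under HS (1.73%). Of the 28, 5 had a peak in both conditions (1.75% of all genes), 5 under HS alone (3.19%) and 0 under NS alone (1.86%). Peaks in both conditions were found at ERDJ3A and ERDJ3B, which are J-protein partners of BiP, at ERO1, the oxidase that drives disulphide formation, and at BZIP28 and BZIP60, the transcription factors of the unfolded protein response. ERDJ3B was the strongest of these, with 4.39-fold enrichment under NS and 16.2-fold under HS. The BZIP60 peaks lay away from the start, with the HS summit nearer to another gene, AT1G42980. Peaks under HS alone were found at the disulphide isomerases PDIL1-1 (5.45-fold), PDIL2-2 (12.3) and PDIL2-3 (5.67), at the co-chaperone P58IPK (3.79) and at HSP70-17 (8.62). An ERSE-I lay within 50 bp of 4 of the 9 start-site HS summits, those of PDIL1-1, PDIL2-2, P58IPK and HSP70-17, beside 3.28% of all start-proximal NP HS peaks. The HS summits of PDIL2-3, ERDJ3A, ERDJ3B, ERO1, BZIP28 and BZIP60 had none. At ERDJ3B, however, an ERSE-I lay within 50 bp of the NS summit, 89 bp downstream of the start, while the HS summit lay 92 bp downstream. No native peak was found at 18 of the 28, and 0 of the 28 had one under NS alone.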

How the data were processed

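ChIP-seq was carried out by the authors on leaves with paired-end reads, which were aligned to TAIR10 with GSNAP allowing a single mismatch, per the methods. CASAVA 1.8.2 is also named in the submitters' processing notes. Duplicates were removed with SAMtools. Peaks were called by the authors with MACS 2.0.10.20131028 at a q-value limit of 0.05, on pools of 2 treatment libraries, which the study's methods describe as 2 plants of 1 heat experiment. Per the file headers, the deposited values at each summit are the pileup (a signal, fragment coverage), the fold enrichment (a ratio over the local background, with a pseudocount of 1 in both terms), and the −log10 of the q-value. The −log10 p-values beside it were not used. Pileups of 35S HS had been scaled by the caller by 0.721, which was divided out. The deposited peaks of at least 2-fold on chromosomes 1 to 5 were kept.

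Peaks were assigned to every gene they reached within 1 kb, with gene positions from the RefSeq annotation of TAIR10. Background at the summit was recovered from pileup and fold enrichment. Counting intervals are exact (Clopper-Pearson for ratios) at 95%. Python 3.11.15, pandas 2.3.3, numpy 2.4.6 and scipy 1.17.1 were used, and the scripts were checked on simulated data. The expression that would check the tissue was not measured in these files. The members, the list of other ER genes and the motifs were chosen with earlier results of these data known. All 10 members are named, as are other ER genes with a native peak and neighbours whose start is nearer to a summit. Alternatives covered peak strength, q, distance, summit position, assignment, pericentromeric and wide peaks, the measure of change and the motif windows.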

Additional observations from a re-analysis of the deposited data

Results flagged for a closer look

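At 3 genes the strongest fold enrichment of the gene was higher under HS than under NS in NP:HSFA1b and lower in 35S:HSFA1b. At SHD the log2 difference was −0.48 in 35S (2.04-fold under NS, 1.46 under HS) and 2.85 in NP. At CNX2 it was −0.30 in 35S (1.84 and 1.49) and 1.04 in NP. At CRT1b it was −0.0535 in 35S (1.93 and 1.86) and 1.51 in NP. The difference between constructs was not tested, since each is 1 pooled value, and it includes 35S peaks below 2-fold. The strongest peaks of a gene also lay at different sites: the 35S HS peak lay 3498 bp downstream of the start at SHD, 4370 bp at CRT1b and 2616 bp at CNX2, where the 35S NS peak lay 55 bp upstream. The NP peaks of CNX2 under NS and HS also lay 2671 bp apart, so neither of its differences compares a single site. The 35S NS and HS lists share 2 control libraries.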

How the results depend on the processing

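No paired analysis was possible because each list pools its 2 replicates, and for the same reason no replicate could be left out. The native count under HS was 8 to 9 of 10 under each alternative, with BIP1 lost when pericentromeric peaks were left out. The native count under NS was 6 or 7 except at 3-fold, where it was 4. The 35S NS count of 5 was 10 with all deposited peaks, 2 at 3-fold, 2 with the summit in the window, 2 by the nearest start site, and 1 without peaks wider than 1000 bp. The 35S HS count of 3 was 9, 0, 1, 1 and 0 under the same alternatives. Leaving out wide peaks and requiring the summit in the window, chosen after seeing the data, gave 1 and 0. Of 40 alternative member counts 13 differed by over 1.5 times. Only the log2 ratios have a direction that could reverse, and 0 of their alternatives reversed it. At single genes, the alternative of overlapping peaks reused the same pair of peaks and so could not reverse. The CRT1b ratio by pileup also had a counting interval that includes no change.

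By pileup per fragment the log2 ratio was 0.30 at CRT1b in place of 1.51 and 2.30 at SHD in place of 2.85. The median over the 6 members with native peaks in both lists was 1.32 by fold enrichment and 1.31 by pileup. These 6 include CNX2, whose NS and HS peaks lay 2671 bp apart. Over the 5 members with overlapping peaks the median was 1.51 by fold enrichment. Over overlapping peaks by pileup, a choice made after seeing the data, it was 1.02. Of 32 alternative ranks 22 differed by over 1.5 times. Peak lists hold no value where no peak was called, and the NP HS pool, at 0.360 times the NS depth, listed no summit under 4.92 fragments per 1000000, against 3.54 under NS.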
